A study of Mus musculus with 9 samples.

Results

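The 37 genes described here code for the transcription factor NRF2 (gene Nfe2l2), its partners, and enzymes of glutathione, thioredoxin, NADPH and detoxification that are mostly known as its targets. They were listed by name, and each was read from the probe set annotated with its symbol. Of the 37 genes, 33 had such a probe set among 19505 named genes, and 32 passed a filter on dim probe sets that left 10042 genes to test. Prdx5, Prdx6, G6pdx and Tkt had no probe set under their symbol and were not analysed here. Gsta4, a glutathione transferase, was read at 4.01 to 4.38 on the log2 scale, below the filter at 5.66, and was not tested. Every level below is the deposited log2 value of 1 probe set, and a difference of 1 is a doubling.

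Expression was measured on 9 microarrays of macrophages grown in culture from the bone marrow of wildtype C57BL/6 mice. Marrow cells were grown for 7 days with the growth factor M-CSF, given as 10 ng/ml in one part of the deposited description and as 20 ng/ml in another, and all groups then received 20 ng/ml of recombinant mouse IL-4 for 24 h. IL-4 drives macrophages toward the anti-inflammatory state called M2. The vehicle group had no lipocalin 2 (LCN2, a secreted protein that binds the iron carriers of bacteria), one group received LCN2 on day 7 together with IL-4 at a dose not given for that group, and the other group had 150 ng/ml of recombinant mouse LCN2 from day 0. Each group had 3 arrays, numbered 1, 2 and 3 in their titles. The sex and age of the mice are not given. Whether each array stands for its own mouse or culture is not stated, so p-values measure the spread between these arrays, which may be technical.

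NRF2 is held in the cytoplasm by KEAP1, which passes it to a ubiquitin ligase for destruction. Electrophiles and oxidants change cysteines of KEAP1, NRF2 then accumulates in the nucleus and, paired with a small MAF protein, binds antioxidant response elements near its targets. The targets include enzymes that make and use the tripeptide glutathione, reduce thioredoxin, supply NADPH, and attach glutathione to foreign compounds or export the product. Because NRF2 is controlled chiefly through the stability of the protein, the level of its mRNA is not a measure of its activity. Macrophages use these enzymes to limit damage from the oxidants that they make themselves.

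The arrays numbered 1 stood apart from the rest. Principal component 1, which held 62.5% of the variance, had scores of 21.3 to 31.0 on those arrays and of -15.9 to -10.3 on the arrays numbered 2 and 3. Array medians lay between 5.60 and 5.69. The mean level of 5 macrophage markers present on the arrays was 10.17 to 10.36 on all arrays. Of the 5, 1 was called higher (11% of all genes) and 1 lower (22.1% of all genes) on the arrays numbered 1. Mertk averaged 8.37 there against 7.60 on the others, and Fcgr1 7.39 against 8.37. The 5 lymphoid markers present all fell below the dim filter, as did 4 of 5 erythroid ones. Of 7 dendritic markers present, 2 passed the dim filter. Both were called higher on the arrays numbered 1 (11% of all genes), Itgax at 11.51 against 10.81 and Ccr7 at 6.48 against 6.15. Below the filter the dendritic markers went both ways. Cd209a averaged 5.21 on the arrays numbered 1 against 5.82, Zbtb46 5.34 against 5.51 and Xcr1 3.13 against 3.36. Siglech averaged 4.45 against 4.23 and Flt3 4.22 against 4.13. Of 2 tested mast cell and basophil markers, 1 was called higher on the arrays numbered 1 (11% of all genes), Gata2 at 6.91 against 5.94. On the arrays numbered 1 against the other arrays, 14 of 16 tested cell cycle genes were called lower (22.1% of all genes). The mean level of that list was 8.30 to 8.91 against 9.23 to 9.56. Also called lower were 6 of 7 tested neutrophil and promyelocyte genes (5.60 to 6.32 against 6.75 to 7.26 over the list of 10). The same held for 3 of 3 monocyte genes (5.98 to 6.69 against 7.67 to 8.07). Over 7 genes of the IL-4 response the mean level was 9.81 to 10.15 on the arrays numbered 1 and 9.39 to 9.69 on the others. These genes went both ways, with 3 called higher (11% of all genes), 1 called lower (22.1% of all genes) and a median difference of 0.0064. Chil3 averaged 12.5119 against 10.9997 and Ccl24 8.82 against 6.38, while Arg1 averaged 11.24 against 11.88 and Irf4 7.34 against 7.87. In bulk RNA, fewer cells of a type and less RNA per cell cannot be told apart, and the part of these markers in the differences below was not tested.

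No antioxidant gene passed the test in any LCN2 comparison, whereas many differed between the title numbers. Of 32 members tested, 0 passed an adjusted p of 0.05 (limma over 10042 genes, Benjamini-Hochberg) between vehicle and LCN2 from day 7, against a background of 0% of all genes tested. LCN2 from day 0 set against vehicle also gave 0 of 32 against a background of 0%, and so did that of both LCN2 groups with each other, again with a background of 0%. Between the arrays numbered 1 and those numbered 2 and 3, with treatment as a term, 17 of 32 members (53.1%) passed, against 33.2% of all genes tested. Of these, 11 members (34.4%) were higher on the arrays numbered 1, against 11% of all genes, and 6 (18.8%) were lower, against 22.1%. The arrays did not overlap for 11 members higher and 4 lower on the arrays numbered 1 (11.8% and 23.6% of all genes), and 18 members had an unadjusted p below 0.05 (45% of all genes). The median difference was 0.05 over the 32 members and -0.06 over all genes. This contrast was chosen with the separation of the arrays already known, so it describes the arrays. The fit counts the 9 arrays as separate, and whether arrays of the same number share a preparation is not stated. If they do, the p-values of this contrast do not measure the spread between preparations. Arrays numbered 2 and 3 did not differ in any member or gene by the same test (0 of 32, background 0%), with 3 members and 3.09% of all genes below an unadjusted p of 0.05. Of the 32 members 22 were higher on arrays numbered 2 than on those numbered 3 (44.3% of all genes), 9 of them in all 3 groups (9.13% of all genes).

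**Figure D1:**
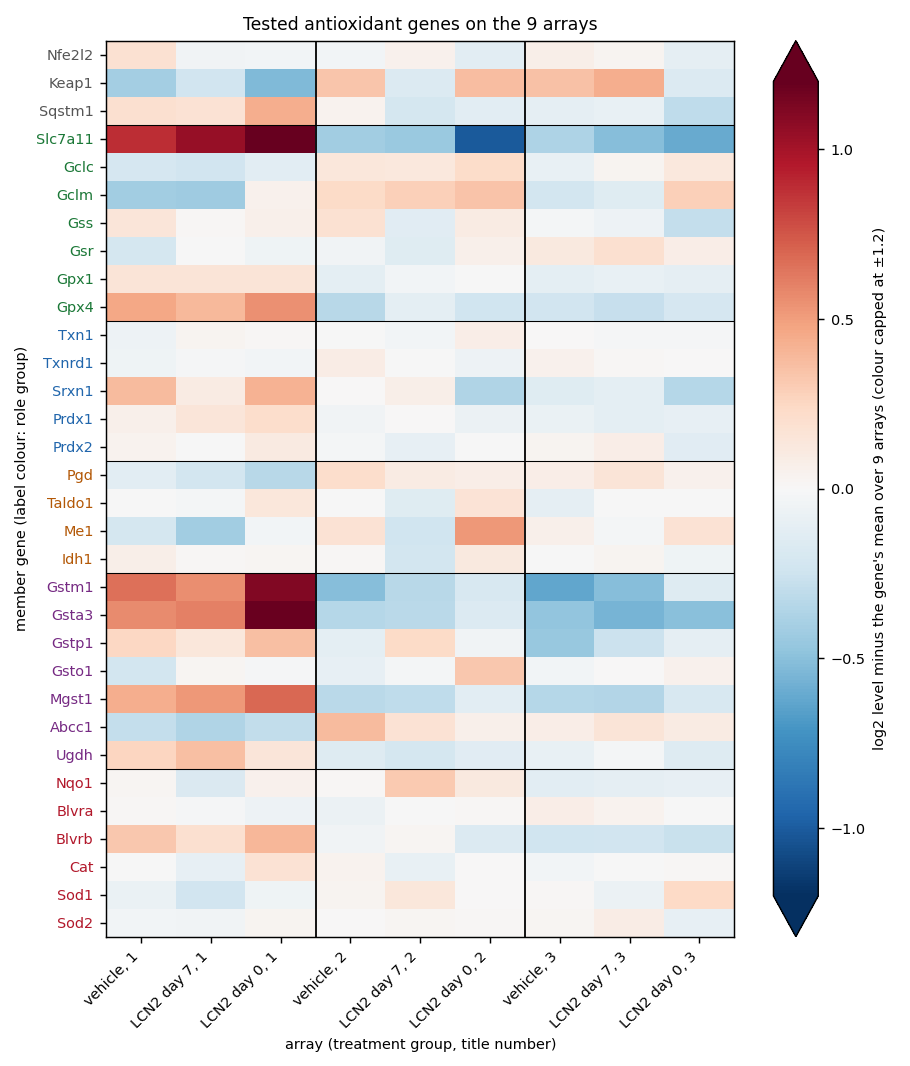
Heat map of the 32 tested members (vertical axis, label colour by role group) on the 9 arrays (horizontal axis, ordered by title number and then treatment). Colour is the log2 level minus the gene's mean over the 9 arrays, capped at 1.2 in both directions. Slc7a11, Gstm1, Gsta3, Mgst1 and Gpx4 are red on the 3 arrays numbered 1 and blue or near white on the other arrays.

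Among the regulators, Keap1 was lower and Sqstm1 higher on the arrays numbered 1, while Nfe2l2 differed by 0.06. Keap1, the adaptor that marks NRF2 for destruction, had log2 levels of 6.95, 7.68 and 7.70 on vehicle arrays 1, 2 and 3, of 7.12, 7.19 and 7.79 with LCN2 from day 7, and of 6.82, 7.72 and 7.19 with LCN2 from day 0. Its 3 arrays numbered 1 were the lowest of the 9, although array 2 of day 7 and array 3 of day 0 lay close to the highest of them. The difference was -0.58 ± 0.17 (SE, 3 arrays against 6; limma adjusted p = 0.0292). The call was lost without any 1 of the vehicle arrays, without array 1 or 3 of LCN2 from day 7 and without array 1 of LCN2 from day 0, with the highest adjusted p of 0.151 and a difference of -0.50 without vehicle replicate 1. Nfe2l2 lay at 9.02, 8.81 and 8.91 on the vehicle arrays, at 8.80, 8.89 and 8.87 with LCN2 from day 7 and at 8.81, 8.71 and 8.73 with LCN2 from day 0. Its lowest level was 8.71 and its highest 9.02, and the numbers overlapped. Sqstm1, the autophagy receptor p62 that can sequester KEAP1, ranged from 10.22 to 10.96 and was higher on the arrays numbered 1 by 0.40 ± 0.10 (limma adjusted p = 0.0204). Without replicate 1 of LCN2 from day 0 the Sqstm1 difference was 0.27, with an adjusted p of 0.121, and the call was also lost without replicate 1 of LCN2 from day 7.

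Of 7 tested glutathione genes 3 were higher on the arrays numbered 1 (11% of all genes) and 2 lower (22.1% of all genes). Slc7a11, the cystine carrier of the antiporter that supplies cysteine for glutathione, had log2 levels of 8.99, 7.69 and 7.73 on vehicle arrays 1, 2 and 3. With LCN2 from day 7 it lay at 9.15, 7.66 and 7.59, and with LCN2 from day 0 at 9.52, 7.09 and 7.50. Every array numbered 1 was above every other array, by 3.19-fold in the mean (difference 1.67 ± 0.17, limma adjusted p = 0.000408). The differences within vehicle, day 7 and day 0 were 1.28, 1.52 and 2.22. Gpx4, which reduces lipid peroxides in membranes, lay at 10.70, 9.90 and 10.00 on the vehicle arrays, at 10.62, 10.12 and 9.95 with LCN2 from day 7 and at 10.78, 9.99 and 10.04 with LCN2 from day 0. Here too the numbers did not overlap, and the difference was 0.70 ± 0.08 (limma adjusted p = 0.000773). Gpx1, the cytosolic glutathione peroxidase, had levels of 12.06 to 12.33 over the 9 arrays and was higher by 0.23 ± 0.07 (adjusted p = 0.0409). This call was lost in all 9 fits that left out 1 array (differences 0.21 to 0.24) and in 3 of 8 other settings.

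Gclc and Gclm, the catalytic and modifier subunits of glutamate-cysteine ligase, were lower on the arrays numbered 1. Gclc had log2 levels of 9.18, 9.52 and 9.30 on vehicle arrays 1, 2 and 3, of 9.16, 9.52 and 9.42 with LCN2 from day 7 and of 9.26, 9.60 and 9.52 with LCN2 from day 0. Its arrays numbered 1 were the 3 lowest, by -0.28 ± 0.07 (limma adjusted p = 0.0223). Gclm lay at 10.52, 11.17 and 10.72 on the vehicle arrays, at 10.51, 11.22 and 10.79 with LCN2 from day 7 and at 10.99, 11.28 and 11.22 with LCN2 from day 0. The numbers of Gclm overlapped, because array 1 of day 0 was above the arrays numbered 3 of both other groups, and the difference was -0.39 ± 0.10 (adjusted p = 0.0154). Gss, which completes the tripeptide, and Gsr, which reduces oxidised glutathione, differed by 0.11 and -0.13 between the numbers and did not pass the test.

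Of 5 tested thioredoxin genes, 1 was higher on the arrays numbered 1 (11% of all genes) and 0 were lower (22.1% of all genes). That gene was Srxn1, the sulfiredoxin that repairs overoxidised peroxiredoxins, with levels of 9.62 to 9.94 on the arrays numbered 1 and of 9.16 to 9.59 on the others. The difference was 0.45 ± 0.12 (limma adjusted p = 0.0225), and 0.12, the smallest of the 3 within-group values, was that of LCN2 from day 7. Txnrd1, the cytosolic thioredoxin reductase and a standard NRF2 target, had levels of 10.79, 10.93 and 10.89 on the vehicle arrays, of 10.83, 10.84 and 10.85 with LCN2 from day 7 and of 10.81, 10.78 and 10.84 with LCN2 from day 0. All 9 values of Txnrd1 lay within 10.78 to 10.93, and the numbers overlapped. Prdx1, a peroxiredoxin that removes hydrogen peroxide, was at 12.91 to 13.06 on the arrays numbered 1 and at 12.73 to 12.86 on the others. Its ranges did not overlap, but its difference of 0.20 had an adjusted p of 0.0720 (limma). Prdx2 and Txn1, the thioredoxin itself, ranged from 10.61 to 10.86 and from 12.04 to 12.17.

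Of 4 tested genes that supply NADPH, 2 were lower on the arrays numbered 1 (22.1% of all genes). Pgd, the decarboxylating dehydrogenase of the pentose phosphate pathway, was at 10.71 to 10.91 there and at 11.09 to 11.25 on the other arrays, a difference of -0.34 ± 0.08 (limma adjusted p = 0.0114). Me1, cytosolic malic enzyme, had log2 levels of 6.91, 7.30 and 7.19 on vehicle arrays 1, 2 and 3, of 6.72, 6.89 and 7.10 with LCN2 from day 7 and of 7.10, 7.65 and 7.30 with LCN2 from day 0. In each group array 1 was the lowest of the 3, although the numbers overlapped across groups, and the difference was -0.33 ± 0.10 (adjusted p = 0.0366). Taldo1, the transaldolase, and Idh1, cytosolic isocitrate dehydrogenase, differed by 0.05 and 0.06 and did not pass the test.

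The transferase and export genes held the most calls: of 7 tested, 5 were higher (11% of all genes) and 1 was lower (22.1% of all genes) on the arrays numbered 1. Gstm1, a mu-class glutathione transferase, lay at 11.45, 10.28 and 10.17 on vehicle arrays 1, 2 and 3, at 11.34, 10.46 and 10.28 with LCN2 from day 7 and at 11.90, 10.60 and 10.64 with LCN2 from day 0. Gsta3, of the alpha class, lay at 7.68, 6.77 and 6.63 on the vehicle arrays, at 7.72, 6.78 and 6.55 with LCN2 from day 7 and at 8.30, 6.94 and 6.61 with LCN2 from day 0. For both genes every array numbered 1 was above every other array. The differences were 1.16 ± 0.09 for Gstm1 (limma adjusted p = 0.000122) and 1.18 ± 0.11 for Gsta3 (adjusted p = 0.000306), or 2.24-fold and 2.27-fold.

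Mgst1, a transferase of membranes that also has peroxidase activity, had levels of 11.50, 10.74 and 10.72 on the vehicle arrays, of 11.59, 10.76 and 10.71 with LCN2 from day 7 and of 11.75, 10.94 and 10.87 with LCN2 from day 0. It was higher on the arrays numbered 1 by 0.82 ± 0.07 (limma adjusted p = 0.000227), with within-group values of 0.77, 0.85 and 0.85. Ugdh, which makes the UDP-glucuronate used in conjugation, was higher by 0.38 ± 0.08 (adjusted p = 0.00817). Gstp1, a pi-class transferase, was higher by 0.37 ± 0.10 (adjusted p = 0.0269), but its numbers overlapped and the call was lost in 6 of the 9 fits that left out 1 array, with the highest adjusted p of 0.163 without vehicle replicate 1, and in 1 of 8 other settings. Abcc1, which pumps glutathione conjugates out of the cell, went the other way, with 9.94, 10.60 and 10.30 on the vehicle arrays, 9.87, 10.40 and 10.38 with LCN2 from day 7 and 9.92, 10.29 and 10.32 with LCN2 from day 0. Its 3 arrays numbered 1 were the lowest, by -0.47 ± 0.09 (adjusted p = 0.00473). Gsto1, an omega-class transferase, differed by -0.11 and did not pass the test. Glutathione transferases of a class share sequence, and cross-hybridisation between their probe sets was not tested.

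Of the 6 remaining enzymes 1 was higher on the arrays numbered 1 (11% of all genes). Blvrb, biliverdin reductase B, had log2 levels of 10.86, 10.49 and 10.30 on vehicle arrays 1, 2 and 3, of 10.73, 10.56 and 10.30 with LCN2 from day 7 and of 10.94, 10.37 and 10.27 with LCN2 from day 0. The difference was 0.46 ± 0.09, with no overlap (limma adjusted p = 0.00498). Nqo1, a quinone reductase that often serves as a readout of NRF2 activity, lay at 6.46, 6.45 and 6.31 on the vehicle arrays, at 6.26, 6.75 and 6.33 with LCN2 from day 7 and at 6.49, 6.55 and 6.33 with LCN2 from day 0. Its values overlapped between numbers and between groups. Blvra, Cat (catalase), Sod1 and Sod2 (superoxide dismutases) differed by -0.18 to 0.04 between the numbers and did not pass the test.

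**Figure D2:**
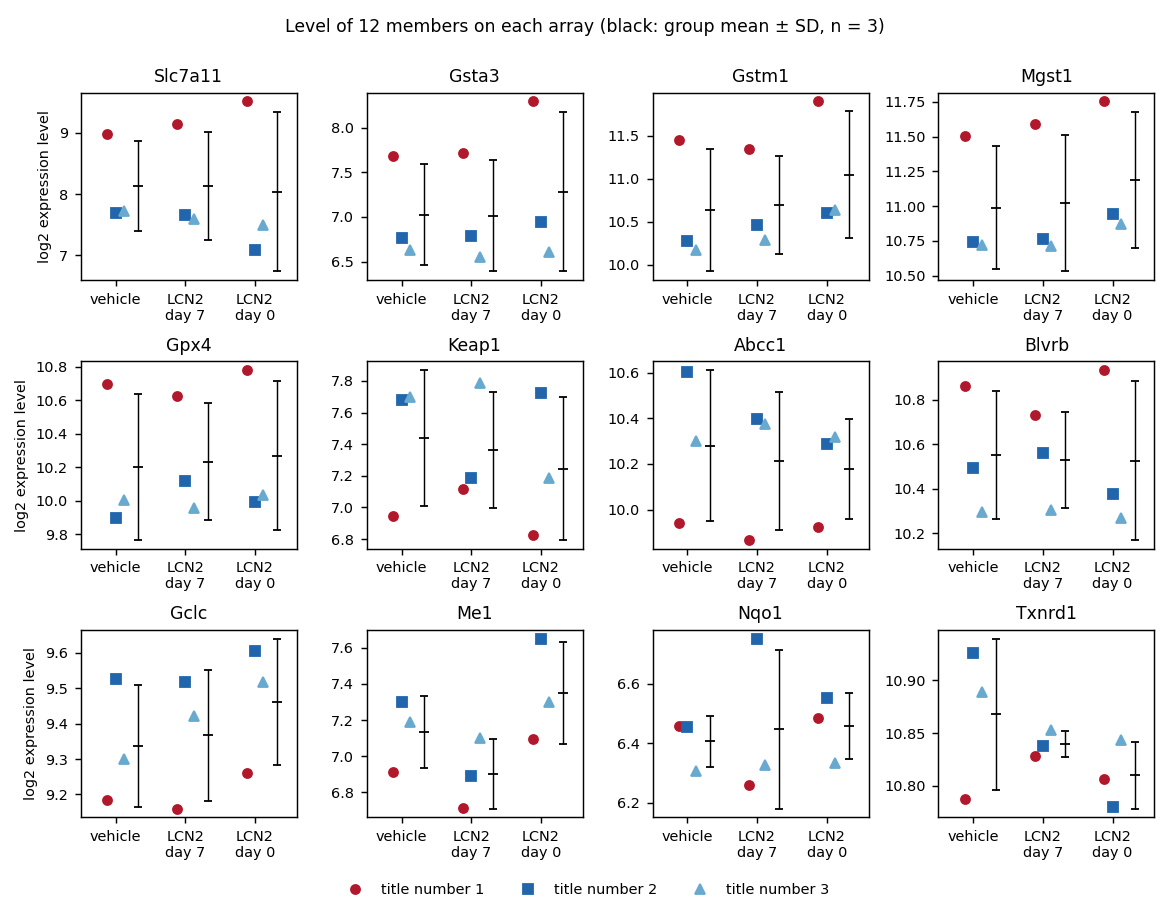
Log2 expression level (vertical axis) of 12 members by treatment group (horizontal axis), 1 point per array, with colour and shape for the title number and black bars for the group mean ± SD (n = 3). The red points, the arrays numbered 1, are above all other points for Slc7a11, Gsta3, Gstm1, Mgst1, Gpx4 and Blvrb, and below them for Keap1, Abcc1 and Gclc.

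**Figure D3:**
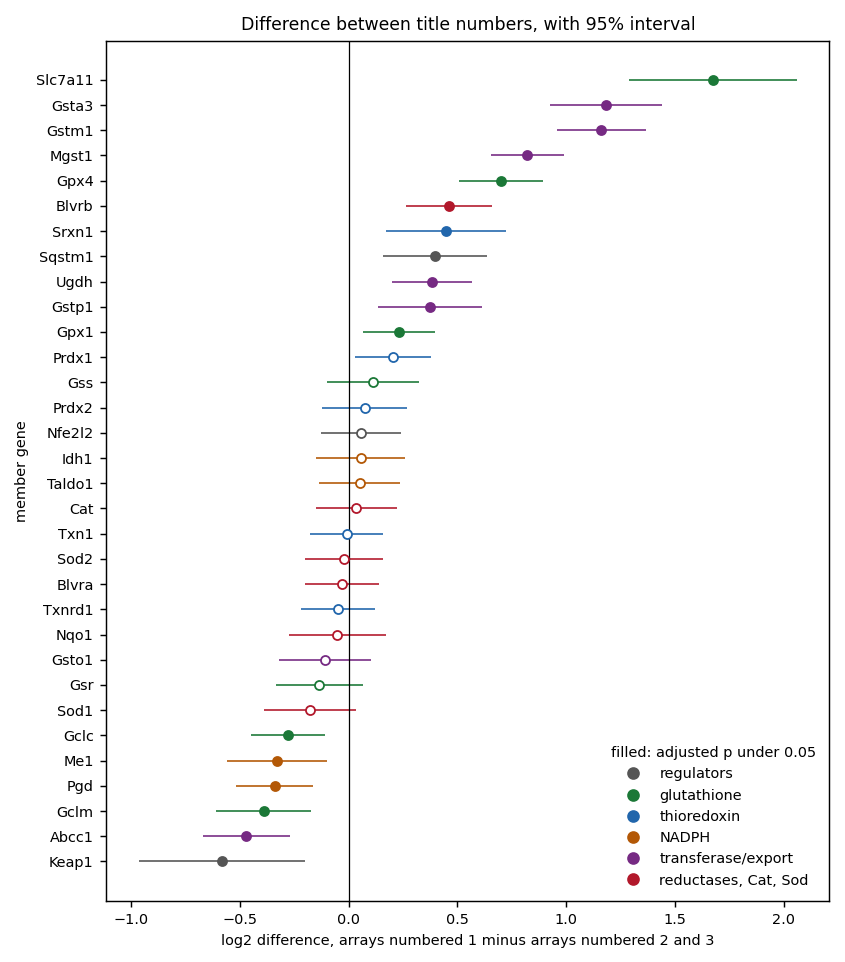
Log2 difference between the arrays numbered 1 and those numbered 2 and 3 (horizontal axis) for each of the 32 tested members (vertical axis), with its 95% interval from limma. Filled points have an adjusted p under 0.05: 11 members lie to the right of 0 and 6 to the left, from Keap1 at -0.58 to Slc7a11 at 1.67.

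Among 16 tested members taken as textbook NRF2 targets, 6 (37.5%) were higher on the arrays numbered 1, against 11% of all genes. Another 5 (31.2%) were lower, against 22.1% of all genes. The median difference was 0.0021 over the 16 and -0.06 over all genes. Members higher in all 3 groups numbered 15 of 32 (23.6% of all genes) and members lower in all 3 numbered 9 (40.1% of all genes). Without single arrays, 9 to 16 of the 32 members passed instead of 17. The count was 10 without vehicle replicate 1, 11 without vehicle replicate 2, 11 without replicate 1 of LCN2 from day 7 and 9 without replicate 1 of LCN2 from day 0. All 17 genes kept their direction under the 17 alternatives run for this contrast, and 8 of them also kept the call under each: Slc7a11, Gsta3, Gstm1, Mgst1, Gpx4, Blvrb, Abcc1 and Ugdh. The other 9, Keap1, Sqstm1, Gclc, Gclm, Gpx1, Srxn1, Pgd, Me1 and Gstp1, lost it under at least 1 alternative. Of the 9 fits that each left out 1 array, the call was lost in 9 for Gpx1, 7 for Me1, 6 for Keap1 and Gstp1, 4 for Gclc and Srxn1, 2 for Gclm and Sqstm1, and 1 for Pgd.

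Since members differed in both directions between the numbers, their promoters were searched for letters of the antioxidant response element. RefSeq windows of the build GRCm38.p6, from 250 bases before to 50 after a gene's start, were held for 32 of the 37 members. The 2 motifs were TGACNNNGC, the core of the element, and TGANTCAGC, the site of MAF heterodimers, on both strands. The letters TGACTCAGC match both motifs. The first was found in 13 of 32 members (40.6%) and in 14% of 27025 genes, and the second in 4 of 32 members (12.5%) and in 1.37% of genes. Most members were listed as known NRF2 targets, so a higher share than over all genes can follow from the choice of the list. By call, the first motif was held by 4 of the 11 members higher on the arrays numbered 1, by 3 of the 4 lower ones that had a window, and by 5 of 14 tested members without a call. The matches ahead of or across the start of a called member follow in the direction of the gene, with up to 25 bases on each side, because genes of both directions hold them. Capitals mark the match, which reads as the motif on the opposite strand where it begins with GC. A match is a description of letters, and no binding was measured.
Gsta3, higher, chr1:21240439-21240497, plus strand: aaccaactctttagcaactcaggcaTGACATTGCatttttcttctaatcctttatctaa
Mgst1, higher, chr6:138140446-138140504, plus strand: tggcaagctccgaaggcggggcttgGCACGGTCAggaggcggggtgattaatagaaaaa
Ugdh, higher, chr5:65435941-65435999, minus strand: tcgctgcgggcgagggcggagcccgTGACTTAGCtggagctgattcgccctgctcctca
Ugdh, higher, chr5:65435903-65435961, minus strand: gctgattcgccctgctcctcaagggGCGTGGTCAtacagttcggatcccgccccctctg
Srxn1, higher, chr2:152105454-152105512, plus strand: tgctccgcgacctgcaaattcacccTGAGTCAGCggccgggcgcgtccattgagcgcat
Gstp1, higher, chr19:4037953-4038011, minus strand: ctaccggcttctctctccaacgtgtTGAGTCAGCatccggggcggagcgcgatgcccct
Gclm, lower, chr3:122245398-122245456, plus strand: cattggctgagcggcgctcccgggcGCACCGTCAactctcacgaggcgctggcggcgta
Me1, lower, chr9:86695912-86695945, minus strand: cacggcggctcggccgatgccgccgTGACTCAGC

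The Me1 match crosses the start, so its sequence is shown only to the end of the match. The Srxn1 and Gstp1 sequences show the second motif. Srxn1, and Pgd among the lower members, held the first motif only after a start, where no sequence is shown. Slc7a11, Gstm1, Gpx4, Blvrb, Sqstm1 and Gpx1, which were higher on the arrays numbered 1, and Keap1, which was lower, held neither motif in their windows.

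LCN2 given on day 7 together with IL-4 gave differences from vehicle close to 0. The 32 differences ran from -0.23 to 0.14, with a median of -0.0086, and 14 of 32 were above 0 (50.9% of all genes). No member had an unadjusted p below 0.05, against 0.697% of all genes. Me1 lay at the lower end, with a group mean of 6.90 ± 0.19 (SD, n = 3) against 7.13 ± 0.20 in vehicle. Its difference was -0.23 ± 0.17 (SE; 95% interval -0.63 to 0.16), and array by array it was -0.20, -0.41 and -0.09 for numbers 1, 2 and 3.

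Gss, with levels of 7.01, 7.05 and 6.84 on vehicle arrays 1, 2 and 3, of 6.88, 6.73 and 6.80 with LCN2 from day 7 and of 6.93, 6.96 and 6.58 with LCN2 from day 0, was next. Its difference at day 7 was -0.16 ± 0.13, below 0 for each number, and its groups overlapped. Gsto1 lay at 9.48, 9.59 and 9.67 on the vehicle arrays, at 9.72, 9.67 and 9.70 with LCN2 from day 7 and at 9.68, 10.02 and 9.75 with LCN2 from day 0. Each day 7 array of Gsto1 was at or above the highest vehicle array to 2 decimals, and the ranges did not overlap (3.17% of all genes did not), with a difference of 0.12 ± 0.12. Idh1 had levels of 10.38, 10.33 and 10.30 on the vehicle arrays, of 10.33, 10.09 and 10.34 with LCN2 from day 7 and of 10.33, 10.42 and 10.26 with LCN2 from day 0. Array 2 of day 7 was the lowest of the 9, the groups overlapped, and the difference was -0.08 ± 0.11.

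The key members of the pathway lay near 0 at day 7 as well. The differences were -0.06 for Nfe2l2, -0.08 for Keap1, 0.03 for Gclc, 0.04 for Gclm, 0.04 for Nqo1, -0.03 for Txnrd1 and 0.06 for Gstm1. Their intervals differed in width, from -0.24 to 0.19 for Txnrd1 to -0.97 to 1.09 for Gstm1, whose spread within a group came with the title number. For Slc7a11 the interval ran from -1.509 to 1.504, and with the number as a block from -0.45 to 0.44. By role, 0 of 4 NADPH genes, 0 of 3 regulators, 5 of 7 glutathione genes and 5 of 7 transferase and export genes were above 0 (50.9% of all genes), and differences between the role groups were not tested. Genes of neutrophils and promyelocytes, of monocytes and of the cell cycle were also mostly above 0 in this comparison, without a call. Of 16 cell cycle genes 14 were above 0 (median 0.17). So were 7 of 7 tested neutrophil and promyelocyte genes (median 0.45) and 2 of 3 monocyte genes (median 0.67). Their part in the values of the members was not tested.

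LCN2 present from day 0, through the whole of differentiation, gave wider differences, of -0.19 to 0.41, none past the threshold. Over all genes the range was also wider, at -1.14 to 0.88 against -0.61 to 0.72 for day 7. The widths were not compared by a test. The median was 0.04 over the members and -0.01 over all genes, and 18 of 32 members were above 0 (45.2% of all genes). No member had an unadjusted p below 0.05, against 1.41% of all genes. Within numbers, 10 of 32 members were above vehicle in all 3 pairs (11.8% of all genes) and 3 were below in all 3 (15.4% of all genes). The 10 were Gstm1, Gclm, Gsto1, Me1, Mgst1, Gstp1, Taldo1, Gclc, Gpx4 and Nqo1, and the 3 were Nfe2l2, Gss and Pgd. The median of the members was 0.07 within number 1, 0.06 within number 2 and -0.02 within number 3, and without replicate 1 of LCN2 from day 0 it was -0.0090 in the fit without the block and 0.0012 with the block.

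Gstm1 and Gclm had the highest values in this comparison. Gstm1 averaged 11.04 ± 0.74 (SD, n = 3) with LCN2 from day 0 and 10.63 ± 0.71 with vehicle, a difference of 0.41 ± 0.46 (SE; 95% interval -0.62 to 1.44). Array by array it was 0.45, 0.32 and 0.47 for numbers 1, 2 and 3, and with the number as a block its SE was 0.10 (95% interval 0.18 to 0.65; limma adjusted p = 0.878). The fit without the block gave -0.01 when replicate 1 of LCN2 from day 0 was left out. Vehicle array 1 stays in that fit, and whether arrays of the same number are pairs is not stated. Gclm averaged 11.16 ± 0.15 against 10.80 ± 0.33, a difference of 0.36 ± 0.21 (limma adjusted p = 0.999), with 0.47, 0.12 and 0.50 by number. With the number as a block, the SE of Gclm was 0.11 (95% interval 0.11 to 0.61, limma adjusted p = 0.9605). Gsto1 had the smallest unadjusted p of the members, 0.0782 by limma, with a difference of 0.24 ± 0.12 and no overlap (5.49% of all genes did not overlap). Mgst1 differed by 0.20 ± 0.33, with 0.25, 0.20 and 0.15 by number. Its SE with the block was 0.08 (95% interval 0.0069 to 0.39, limma adjusted p = 0.9605). Gstm1, Gclm and Mgst1 were the 3 of 32 members with an unadjusted p below 0.05 by limma with the block, against 4.95% of all genes.

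Taldo1 had log2 levels of 9.17, 9.16 and 9.06 on vehicle arrays 1, 2 and 3, of 9.14, 9.02 and 9.16 with LCN2 from day 7 and of 9.30, 9.34 and 9.17 with LCN2 from day 0. Its difference between day 0 and vehicle was 0.14 ± 0.10, and array 3 of day 0 lay level with array 1 of vehicle to 2 decimals. Nfe2l2 itself was -0.16 ± 0.10 from vehicle, with -0.21, -0.10 and -0.18 by number. Keap1 differed by -0.19 ± 0.29 and Slc7a11 by -0.10 ± 0.67, and neither kept 1 direction across numbers. For Slc7a11 the values were 0.53, -0.60 and -0.23. By role, 5 of 7 transferase and export genes were above 0 (median 0.20), as were 5 of 7 glutathione genes (median 0.07) and 3 of 4 NADPH genes (median 0.07), while 0 of 3 regulators were (median -0.16), beside 45.2% of all genes. As in the comparison of day 7, 7 of 7 tested neutrophil and promyelocyte genes were above 0 (median 0.45). So were 11 of 16 cell cycle genes (median 0.08) and 2 of 3 monocyte genes (median 0.36). All were without a call, and their part was not tested.

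**Figure D4:**
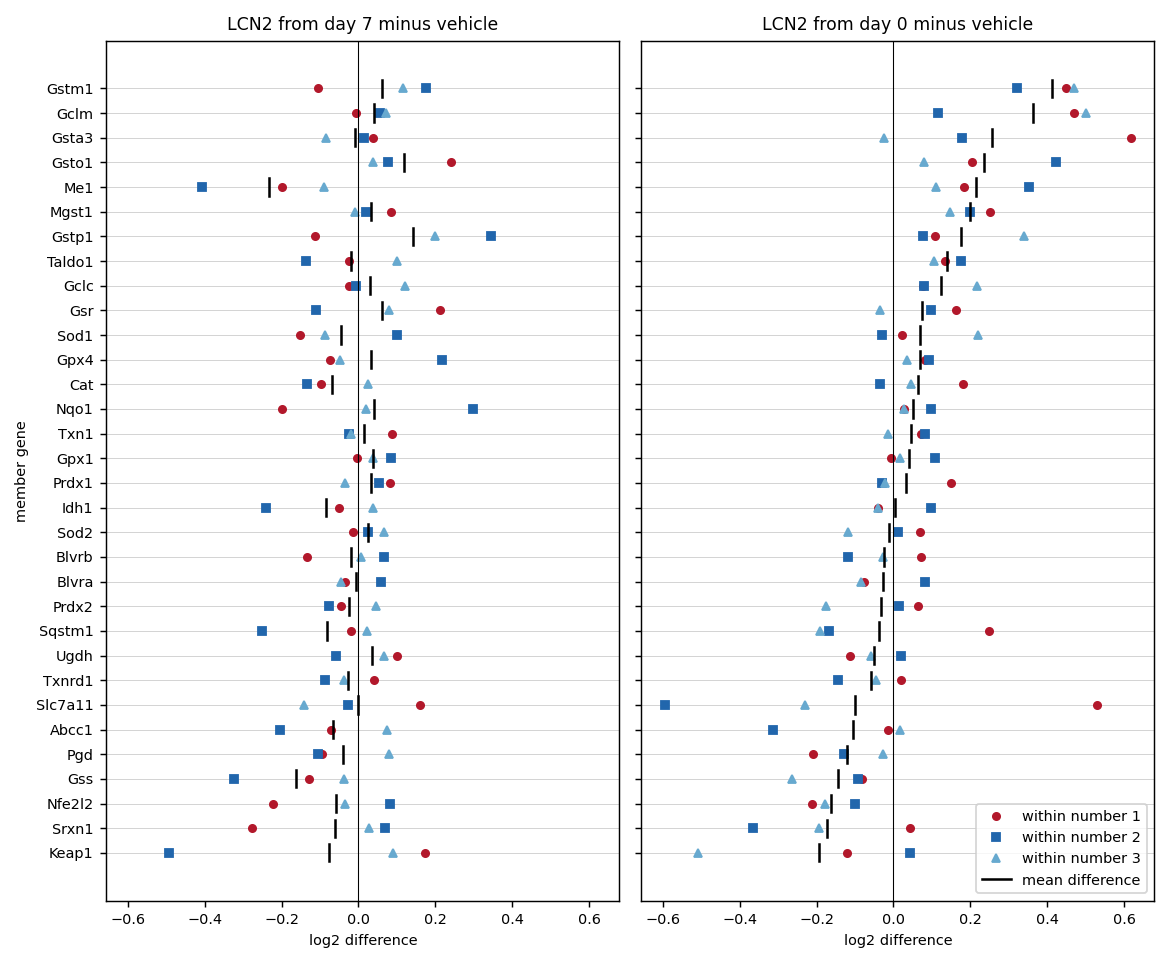
Log2 difference (horizontal axis) of LCN2 from day 7 (left panel) and LCN2 from day 0 (right panel) from vehicle for the 32 tested members (vertical axis, ordered by the day 0 difference). Points are the differences within title numbers 1, 2 and 3 and black bars their mean. Both panels use the same 3 vehicle arrays. Gstm1 and Gclm head the right panel at 0.41 and 0.36.

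Between both LCN2 groups the widest difference was in Me1. Its mean was 7.35 ± 0.28 (SD, n = 3) with LCN2 from day 0 and 6.90 ± 0.19 with LCN2 from day 7, a difference of 0.45 ± 0.17 (SE; 95% interval 0.05 to 0.84). It was above 0 for each number, at 0.38, 0.76 and 0.20, and array 1 of day 0 lay level with array 3 of day 7 to 2 decimals. Me1 was the 1 member with an unadjusted p below 0.05 (0.0302, limma; adjusted p = 1.00), against 1.76% of all genes. Taldo1 differed by 0.16 ± 0.10, with no overlap (5% of all genes did not overlap). Cat, catalase, lay at 12.35, 12.39 and 12.32 on vehicle arrays 1, 2 and 3, at 12.25, 12.26 and 12.34 with LCN2 from day 7 and at 12.53, 12.36 and 12.36 with LCN2 from day 0. Its LCN2 groups did not overlap, with a difference of 0.13 ± 0.10. Gclm differed by 0.32 ± 0.21 and Gstm1 by 0.35 ± 0.46. Over the 32 members the median was 0.02 (-0.02 over all genes), 19 were above 0 (44.5% of all genes) and 8 were above 0 in all 3 pairs (8% of all genes).

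Of the other genes of these pathways, 0 of 64 tested passed in any LCN2 comparison, and 28 of 64 (43.8%; 33.2% of all genes) passed between the title numbers, 11 higher (17.2%; 11% of all genes) and 17 lower (26.6%; 22.1% of all genes) on the arrays numbered 1. These 64 are the tested genes of 86 listed as partners or relatives of the members. Higher were Osgin1, an NRF2 target that restrains growth, at 1.17 ± 0.13 (limma adjusted p = 0.000554), Gpx3, a secreted peroxidase, at 0.81, Bach2, a transcriptional repressor related to BACH1, at 0.71, and Gstm2, a mu-class relative of Gstm1, at 0.71. Lower were Me2, mitochondrial malic enzyme, at -0.93 ± 0.10 (adjusted p = 0.000440), and Gstt3, a theta-class transferase, at -0.86. Hmox1, the haem oxygenase that both NRF2 and BACH1 control, was lower by -0.26 ± 0.08 (adjusted p = 0.0316). Bach1, which competes with NRF2 for its sites, was at -0.24 (adjusted p = 0.0528), and Txnip, which binds and inhibits thioredoxin, was at 0.17 (adjusted p = 0.157).

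In the LCN2 comparisons of these 64 genes, 41 were above 0 at day 7 (50.9% of all genes) and 42 at day 0 (45.2% of all genes). Pir, the iron-binding protein pirin, differed from vehicle by 0.51 ± 0.22 at day 7 (unadjusted p = 0.0440, limma) and by 0.38 ± 0.22 at day 0. Chac2, a glutathione-degrading cyclotransferase, differed from vehicle by 0.35 ± 0.17 at day 7, and the day 0 group was below the day 7 group by -0.36 ± 0.17. Abcc3, an export pump related to Abcc1, differed from vehicle by 0.44 ± 0.16 at day 0 (unadjusted p = 0.0204, limma) and by 0.17 ± 0.16 at day 7. Hmox1 was at -0.05 at day 7 and 0.17 at day 0, Bach1 at 0.18 and 0.05, and Txnip at 0.0046 and -0.05. None of these values passed the adjusted threshold.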

How the data were processed

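The authors deposited 1 log2 value per probe set and array for 22203 probe sets, made with RMA in oligo per the submitters' processing notes (versions not given in the sources used here). Per the labels, RNA was amplified and biotin-labelled with a kit for small inputs. The deposited log2 values were used as they stand, and no scanner files were used here. Of the probe sets 19572 carry 1 gene symbol and 2631 none. The probe set with the highest mean stands for a gene, and no member had more than 1. Probe sets with a mean below the median of all means, 5.66, were left out, which left 10042 genes.

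The tests were made by limma (version 3.58.1, under R 4.3.3; 1 mean per group, all 9 arrays, no trend), with Benjamini-Hochberg adjustment over all genes tested and a threshold of 0.05; intervals are 95%. Title numbers were compared with treatment as a term. The fits were also run on simulated data with independent noise, as a check of the code. How often changes as small as those of the members were found is not reported here. The members, the lists of other genes and the markers were chosen with earlier results of these data known. All arrays are given for the key members, for the 4 members with the smallest p in each comparison of groups, and for the 8 with the largest difference between title numbers. Of the other genes, Hmox1, Txnip and Bach1 are named, with the 2 of smallest p in each comparison of groups and the 6 largest called differences between numbers. The number of arrays limits the precision.

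The titles give each group the same numbers. The deviations of same-numbered arrays from their group means correlated at 0.156 to 0.820 over the 9 pairs. Pairs numbered 1 had 0.743 to 0.820, and pairs numbered 2 or 3 had 0.156 to 0.655. Only 5 of 9 arrays correlated best with their own number, and arrays numbered 2 and 3 correlated with each other at 0.201 to 0.687. These values set the arrays numbered 1 apart but do not show a pairing within numbers 2 and 3. The main fits used no block, and the replicate block was run as an alternative. Alternatives were other dim filters, the replicate block, a trend, array weights, centring, quantile normalization, probe-set means, the 2 groups alone and each array left out. A random block, the block with an array left out, and leaving out all arrays numbered 1 were added after the data were seen.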

Additional observations from a re-analysis of the deposited data

Results flagged for a closer look

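Me1, cytosolic malic enzyme, stood out because its differences from vehicle within the title numbers were all below 0 with LCN2 from day 7 (-0.20, -0.41 and -0.09) and all above 0 with LCN2 from day 0 (0.18, 0.35 and 0.11). Both sets of differences use the same 3 vehicle arrays. The difference between the LCN2 groups was 0.45, with an adjusted p of 1.00 by limma and of 0.888 with the replicate block. Opposite directions of this kind were seen in 1 of 32 members and in 100 of 10042 genes tested (0.996%). Groups of 3 arrays were not searched for single outlying arrays.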

How the results depend on the processing

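The number of members past the threshold was 0 in each LCN2 comparison under all 29 alternatives, and so was the number of genes. With the replicate block it stayed at 0 for each, with the medians unchanged at -0.0086, 0.04 and 0.02 for day 7 and day 0 against vehicle and for day 0 against day 7. The block brought 0, 3 and 3 members below an unadjusted p of 0.05 in limma's fit across all genes (2.58%, 4.95% and 5.37% of all genes) and changed no call. Between the title numbers, 13 to 18 members passed under 8 other settings and 9 to 16 with single arrays left out; 9 of the 17 calls were lost at least once.

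Of 27 differences of key members between groups, 16 changed sign under some alternative and 11 did not; the cause was not tested. With array weights, day 7 against vehicle gave Nfe2l2 0.042, Gclc -0.093, Gclm -0.21 and Slc7a11 0.23, and day 0 against day 7 gave Keap1 0.046 and Nqo1 -0.019. Centred arrays gave Slc7a11 0.025 at day 7 and Nqo1 -0.027 for day 0 against day 7, and quantile normalization gave Slc7a11 0.000838 at day 7. With single arrays left out, day 7 against vehicle ran from -0.32 to 0.051 for Keap1, -0.047 to 0.13 for Gclc, -0.15 to 0.22 for Gclm, -0.51 to 0.42 for Slc7a11, -0.11 to 0.13 for Nqo1, -0.068 to 0.0015 for Txnrd1 and -0.26 to 0.47 for Gstm1. Day 0 against vehicle ran from -0.44 to 0.016 for Keap1, -0.84 to 0.37 for Slc7a11 and -0.014 to 0.82 for Gstm1. Day 0 against day 7 ran from -0.36 to 0.094 for Keap1, -0.0083 to 0.20 for Gclc, -0.84 to 0.41 for Slc7a11, -0.082 to 0.16 for Nqo1 and -0.077 to 0.68 for Gstm1.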

Other observations

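By pathway, the other genes that passed between the title numbers (11% of all genes higher, 22.1% lower) came from each of the lists. On the arrays numbered 1, among the other regulators 1 of 9 was higher and 0 lower. For glutathione the counts were 1 higher and 3 lower of 8, for thioredoxin 2 and 4 of 11, for NADPH 0 and 3 of 10, for transferases and exporters 3 and 4 of 14, and for reductases and haem enzymes 4 and 3 of 12. Between arrays numbered 2 and 3, the members with an unadjusted p below 0.05 by limma were Gclm (0.31), Gstp1 (0.30) and Nqo1 (0.26), each higher on arrays numbered 2 in all 3 groups, with an adjusted p of 1.00.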
